A study of Mus musculus with 6 samples.

Results

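Thrombospondins, the transforming growth factor beta (TGF-beta) ligands, 3 latent TGF-beta binding proteins and the type II TGF-beta receptor were followed through the RNA sequencing of the mouse myoblast line C2C12 (strain label C3H). The 10 genes were Thbs1, Thbs2, Thbs3, Tgfb1, Tgfb2, Tgfb3, Ltbp1, Ltbp2, Ltbp3 and Tgfbr2. They were taken by gene symbol from the 22989 rows of each expression table, and each matched a single row. They were chosen by earlier results of these libraries, namely their FPKM and fold changes, so their values are a description and were not tested. Polyadenylated RNA was profiled in 3 libraries of C2C12 myoblasts. The starved library came from cells given the siRNA labelled siNS and kept in Hank's balanced salt solution for 4 h, with HEPES and antibiotics. The siFoxk1 library came from non-starved cells given the siRNA labelled siFoxk1, the Foxk1 knockdown. The control library came from non-starved siNS cells, and growth medium for the line held fetal bovine serum. The stated purpose of the study included profiling expression after starvation or after depletion of Foxk1, a forkhead transcription factor. No label describes the time after siRNA or separate cultures.

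TGF-beta is secreted in a latent form, in which its own propeptide stays bound to the ligand. Latent TGF-beta binding proteins tie this complex to the extracellular matrix, and proteases, integrins or thrombospondin-1 can release the ligand, which then binds the type II receptor and, through the type I receptor, acts on Smad transcription factors. In cultured myoblasts TGF-beta is known as an inhibitor of differentiation, and in many mesenchymal cells as an inducer of matrix and contractile genes.

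Values are FPKM (fragments per kilobase of transcript per 1e6 mapped fragments), a level per length, each given with the authors' 95% interval in brackets. Each group had 1 library, so there is no spread between replicates, no test and no replicate check on any difference. A pair of values is called apart, or without overlap, where their 95% intervals share no value, and this sets libraries against each other, not conditions. Fold changes are log2((FPKM + 1)/(control FPKM + 1)), which understates the change of low genes, and ratios are of plain FPKM. A row counted as expressed if either library of a comparison reached 1 FPKM, and all 10 genes were. Read depth is unknown. Summed FPKM lay between 527673 and 566803, and the intervals of the 10 genes had a half-width between 13.9% and 22.2% of the value. Foxk1 stood at 5.15 FPKM (4.29 to 6.02) in the siFoxk1 library, against 9.09 FPKM (7.76 to 10.4) in the control library, and these limits did not overlap. Its starved value of 16.1 FPKM (13.3 to 18.9) was higher than the control without overlap. All 6 myoblast markers examined, among them Myod1, Des and Cdh15, were at 1 FPKM or more in every library. Of these 6, 1 was lower and 1 higher without overlap in the starved library, where the other 4 overlapped the control. All 6 overlapped it in the siFoxk1 library. Among all expressed rows 12.2% were higher and 10.9% lower without overlap in the starved comparison. The shares in the siFoxk1 comparison were 8.89% and 7.13%. Myod1, a myogenic transcription factor gene, was at 10.7 FPKM (8.49 to 12.8) in the starved, 95.8 FPKM (76.9 to 114) in the siFoxk1 and 70.1 FPKM (57.6 to 82.3) in the control library, so that the starved value was apart below both others. Myf5, a related factor, was higher without overlap in the starved library, at 29.6 FPKM, than in the control library, at 16.8 FPKM. The 5 endothelial markers summed to between 0.215 and 0.390 FPKM and the 4 adipocyte markers to between 0.143 and 0.471 FPKM. The 4 fibroblast markers summed to 2.92 FPKM in the starved, 1.62 FPKM in the siFoxk1 and 1.53 FPKM in the control library, with Tcf21 listed at 0 throughout. Most of it was Pdgfra, which was higher without overlap in the starved library at 2.63 FPKM (2.17 to 3.09), beside 1.41 FPKM (1.14 to 1.67) in the control library. The part of these marker differences in the results was not tested. In bulk RNA, fewer cells of a type and less RNA per cell cannot be told apart.

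The siFoxk1 library had 5 of the 10 genes higher than the control with intervals apart, 1 lower and 4 overlapping. Among all 11357 expressed rows, 8.89% were higher without overlap and 7.13% lower without overlap. The starved library had none of the 10 higher without overlap and 4 lower without overlap, against 12.2% and 10.9% of 11396 expressed rows. Since the genes were chosen with these contrasts known, nothing is read from the counts. The median log2 fold change of the 10 genes was -0.27 in the starved and 0.45 in the siFoxk1 library, while that of all expressed rows was -0.01 and 0.02. Both comparisons use the same control library.

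**Figure D1:**
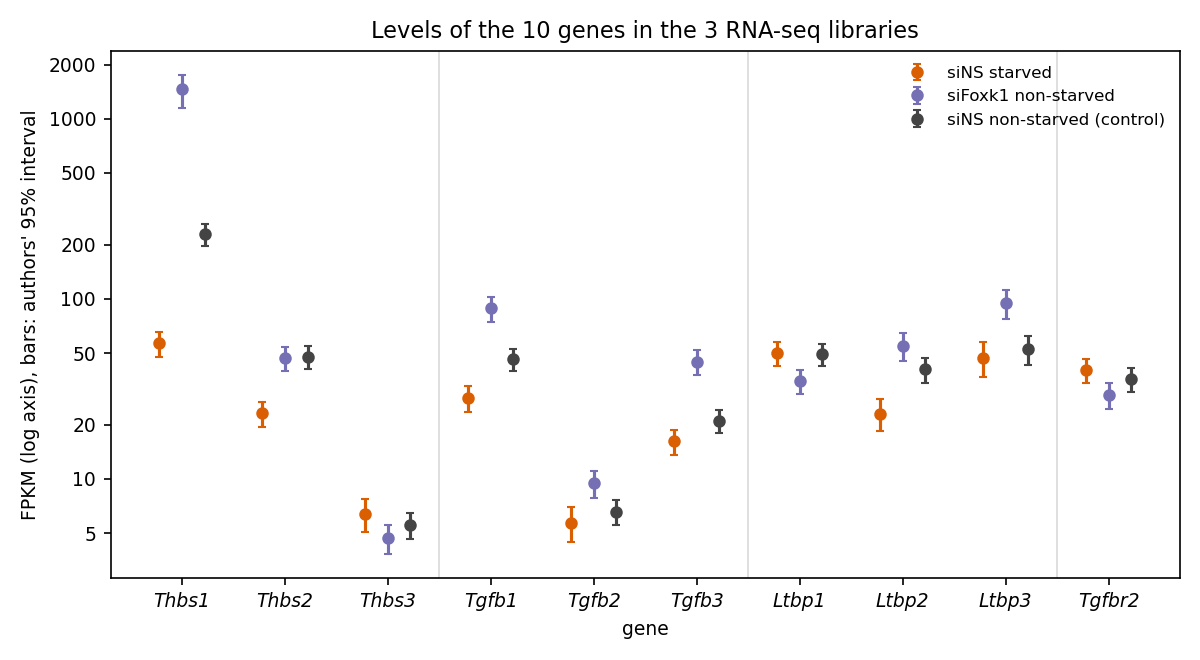
FPKM of the 10 genes (log axis) in the siNS starved, siFoxk1 non-starved and siNS non-starved libraries, with 1 library a group and bars for the authors' 95% interval. Thbs1 spans 56.6 to 1454 FPKM, and the FPKM values of the other 9 genes lie under 100 throughout.

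Thbs1, which encodes the secreted glycoprotein thrombospondin-1, an activator of latent TGF-beta, had the widest spread of the 10 genes. It stood at 56.6 FPKM (47.5 to 65.6) in the starved library, 1454 FPKM (1151 to 1756) in the siFoxk1 library and 228 FPKM (197 to 260.2) in the control library. All 3 intervals were apart from one another, with the siFoxk1 library highest and the starved library lowest. The ratio of starved to control was 0.248, and it stayed between 0.182 and 0.334 when the limits were set against each other. The ratio of knockdown to control was 6.36, between 4.42 and 8.93 in the same way. In the knockdown comparison 34 of 11357 expressed rows had a larger fold change upward, and among rows with intervals apart Thbs1 was number 5 from the top. In the starved comparison 80 of 11396 rows had a lower fold change. By level, Thbs1 ranked 1495 among all rows in the starved library, 48 in the siFoxk1 library and 377 in the control library. It made up 0.0107% of summed FPKM in the starved, 0.258% in the siFoxk1 and 0.0403% in the control library.

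The paralogs of Thbs1 did not share the whole of this pattern, although Thbs2 was also lower without overlap in the starved library. Thbs2 encodes a related trimeric thrombospondin that is known to bind matrix metalloproteinase 2 and not to activate latent TGF-beta. It was at 23.2 FPKM (19.5 to 26.8) in the starved library, 46.8 FPKM (39.5 to 54.0) in the siFoxk1 library and 47.8 FPKM (41.0 to 54.7) in the control library. The starved value was apart from both others, at a ratio to control of 0.485, and the knockdown and control values overlapped. Thbs3, a pentameric thrombospondin known in the mouse for a role in skeletal growth, was at 6.40 FPKM (5.10 to 7.69) in the starved, 4.69 FPKM (3.83 to 5.55) in the siFoxk1 and 5.56 FPKM (4.64 to 6.47) in the control library. All of its intervals overlapped. The remaining pentameric members, Thbs4 and Comp, were under 1 FPKM in every library.

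As a share of the summed FPKM of these 3 thrombospondins, Thbs1 held 65.7% in the starved library, 96.6% in the siFoxk1 library and 81.1% in the control library. Thbs2 held 26.9%, 3.11% and 17.0% in the same order of libraries. The sum itself was 86.1 FPKM in the starved, 1505 FPKM in the siFoxk1 and 282 FPKM in the control library, and most of the difference in the sum was Thbs1.

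Of the TGF-beta ligands, all 3 were higher in the siFoxk1 library than in the control with intervals apart, and Tgfb1 alone was apart in the starved library. Tgfb1, which encodes the isoform best known from platelets and fibrosis, was at 28.2 FPKM (23.6 to 32.8) in the starved library, 88.5 FPKM (74.4 to 103) in the siFoxk1 library and 46.3 FPKM (39.7 to 52.8) in the control library. Its 3 intervals were apart from one another, in the same order of libraries as Thbs1. The ratios to control were 0.609 for the starved and 1.91 for the siFoxk1 library.

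Tgfb3, known for its part in palate fusion in the mouse, was at 16.2 FPKM (13.7 to 18.8) in the starved library, 44.8 FPKM (37.6 to 51.9) in the siFoxk1 library and 21.0 FPKM (17.9 to 24.0) in the control library. The knockdown value stood apart from both others, at 2.13 times the control, and the starved and control intervals overlapped. Tgfb2, whose propeptide lacks the integrin-binding RGD motif of the other ligands, was the lowest, at 5.70 FPKM (4.48 to 6.99) in the starved, 9.47 FPKM (7.84 to 11.1) in the siFoxk1 and 6.58 FPKM (5.54 to 7.62) in the control library. The knockdown value was apart from the control at a ratio of 1.44, but by a narrow margin, since the ratio of its lower limit to the upper limit of the control was 1.03.

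The summed FPKM of the 3 ligands was 50.1 in the starved, 142.7 in the siFoxk1 and 73.9 in the control library. Tgfb1 held 56.3%, 62.0% and 62.6% of these sums, so the make-up of the ligand pool differed less between the libraries than its size. Tgfb3 held 32.4%, 31.4% and 28.4%, and Tgfb2 the rest.

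The latent TGF-beta binding proteins differed among themselves in direction. Ltbp3, which binds latent TGF-beta and is known in the mouse for its part in bone and tooth development, was at 47.1 FPKM (36.7 to 57.6) in the starved library, 94.6 FPKM (77.4 to 112) in the siFoxk1 library and 52.6 FPKM (43.1 to 62.1) in the control library. Its knockdown value was apart from both others and 1.80 times the control. Ltbp1, which also binds latent TGF-beta, was at 49.9 FPKM (42.1 to 57.6) in the starved library, 34.9 FPKM (29.4 to 40.4) in the siFoxk1 library and 49.4 FPKM (42.6 to 56.3) in the control library. It was the single gene of the 10 that was lower without overlap in the siFoxk1 library, at a ratio of 0.706, and its starved and control values overlapped.

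Ltbp2, the family member that does not bind latent TGF-beta and associates with fibrillin microfibrils, was at 23.0 FPKM (18.3 to 27.8) in the starved library, 55.0 FPKM (45.3 to 64.9) in the siFoxk1 library and 40.7 FPKM (34.3 to 47.1) in the control library. The starved value was apart from both others, at a ratio to control of 0.566, whereas the knockdown and control intervals overlapped. In the control library the levels of Ltbp3 and Ltbp1 and those of Ltbp1 and Ltbp2 overlapped. In the siFoxk1 library Ltbp3 was apart above Ltbp2, and Ltbp2 was apart above Ltbp1. Ltbp1 held 41.5% of the summed FPKM of these 3 genes in the starved library, 18.9% in the siFoxk1 library and 34.6% in the control library. Ltbp3 held 39.3%, 51.3% and 36.8%. The level of Ltbp4, a further family member, was 15.6 FPKM in the starved, 16.3 FPKM in the siFoxk1 and 14.8 FPKM in the control library, with all intervals overlapping.

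**Figure D2:**
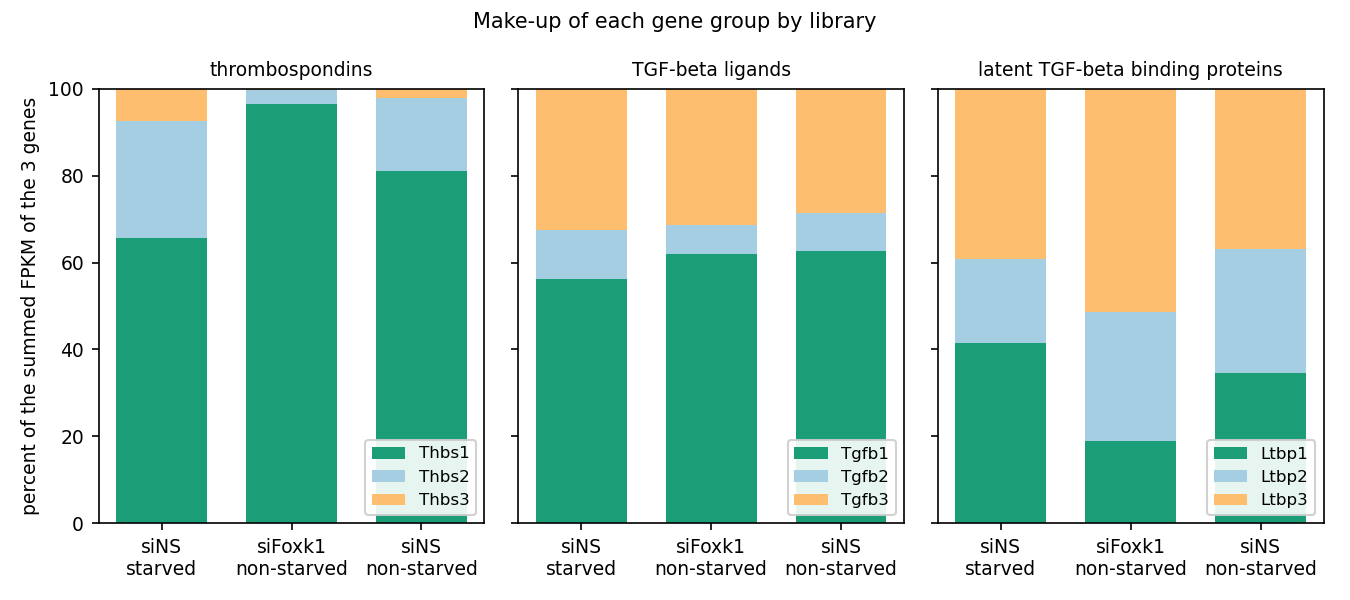
Each gene's percent of the summed FPKM of its group (0 to 100%) in the siNS starved, siFoxk1 non-starved and siNS non-starved libraries, 1 library a bar. Thbs1 fills 96.6% of the thrombospondin bar of the siFoxk1 library, and Ltbp1 holds 18.9% of the binding protein bar there, against 34.6% in the siNS non-starved library.

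Tgfbr2, which encodes the receptor that binds the ligand first, was at 40.4 FPKM (34.2 to 46.6) in the starved library, 29.4 FPKM (24.5 to 34.3) in the siFoxk1 library and 35.8 FPKM (30.6 to 41.1) in the control library. All 3 intervals overlapped, but the starved and knockdown limits all but met, at 34.23 FPKM (lower limit, starved) and 34.28 FPKM (upper limit, knockdown). Under both scalings that pair was apart. Its signalling partner Tgfbr1 was at 8.12 FPKM (5.36 to 8.66) in the starved, 8.26 FPKM (5.75 to 8.70) in the siFoxk1 and 6.46 FPKM (4.56 to 7.13) in the control library, again overlapping. The ratios of Tgfbr2 to control were 1.13 in the starved and 0.820 in the siFoxk1 library.

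**Figure D3:**
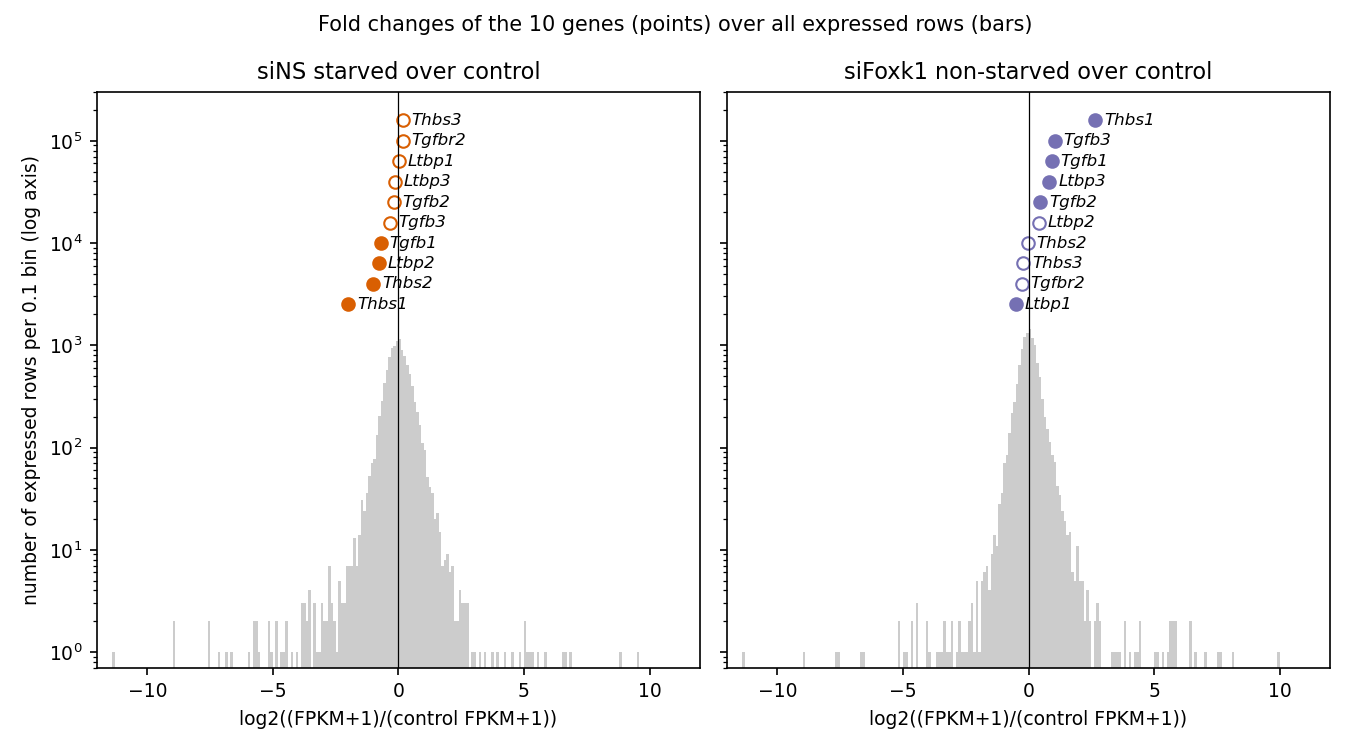
Log2 fold change of the 10 genes (points at arbitrary heights, filled where the intervals are apart) over the number of expressed rows in each 0.1 bin (grey bars, log axis), for siNS starved over control and siFoxk1 over control. Thbs1 lies at -2.00 in the starved and at 2.66 in the siFoxk1 panel, and the other genes lie between -1.01 and 1.06.

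At 2-fold or more on the log2(FPKM + 1) scale with intervals apart, Thbs1 and Thbs2 were lower in the starved library, where 2.34% of all expressed rows were lower and 2.81% higher by that rule. Thbs1 and Tgfb3 were higher in the siFoxk1 library, where 2.07% of expressed rows were higher and 1.07% lower. Tgfb1 (log2 fold change 0.92) lay just short of this limit in the siFoxk1 comparison, and Thbs2 (-1.01) just past it in the starved comparison.

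Set directly against each other, the starved and the siFoxk1 library were apart at 8 of the 10 genes. The starved library was lower at 7 of them and higher at Ltbp1, while Thbs3 and Tgfbr2 overlapped. Among 11478 expressed rows, 13.7% were lower without overlap and 13.3% higher without overlap in this comparison. The starved level was 0.0389 times the knockdown level for Thbs1, 0.319 times for Tgfb1, 0.362 times for Tgfb3 and 0.419 times for Ltbp2. For Ltbp1 it was 1.43 times. At 2-fold or more on the log2(FPKM + 1) scale with intervals apart, 4 of the genes were lower in the starved library (Thbs1, Tgfb1, Tgfb3 and Ltbp2) and none higher, beside 4.6% of expressed rows lower and 3.71% higher. By plain FPKM ratio Thbs2 (0.495) and Ltbp3 (0.498) passed as well, which made 6 lower, beside 6.41% of expressed rows lower and 6.02% higher.

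Within each library Thbs1 had the highest level of the 10 genes, but in the starved library its interval overlapped that of Ltbp1. In the knockdown and control libraries Thbs1 was apart from the next gene, Ltbp3 in both. In the siFoxk1 library Ltbp3 and Tgfb1 came next, apart from Ltbp2 below them. In the control library the intervals of neighbouring genes overlapped all the way from Ltbp3 down to Tgfbr2, that is from 52.6 to 35.8 FPKM. Tgfb2 and Thbs3 were the lowest pair in every library, apart from each other in the siFoxk1 library alone.

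Among 8978 single-gene rows that reached 5 FPKM in any library, those nearest to Thbs1 over the 2 log2 fold changes, 3 libraries in all, were Acta2, Actg2, Egr2, Col8a2 and H19. The distances ran from 0.79 to 1.31 log2 units. Acta2 encodes smooth muscle alpha-actin and stood at 110.0 FPKM (85.9 to 128) in the starved, 1321 FPKM (1034 to 1593) in the siFoxk1 and 333 FPKM (266 to 382) in the control library. Actg2, which encodes the smooth muscle gamma-actin, stood at 16.3 FPKM in the starved, 153 FPKM in the siFoxk1 and 46.5 FPKM in the control library. Reads of actin genes can be shared between near-identical copies, so these values are uncertain. Egr2, an early growth response transcription factor, was at 0.911 FPKM in the starved, 20.8 FPKM in the siFoxk1 and 6.996 FPKM in the control library. All 5 rows were lower without overlap in the starved and higher without overlap in the siFoxk1 library, which the likeness rule favours.

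The other genes of the pathway were taken as 6 lists of 137 genes in all, of which 104 were expressed in the starved and 103 in the siFoxk1 comparison. In the starved library 11 were higher without overlap and 34 lower without overlap. In the siFoxk1 library 45 were higher without overlap and 5 lower without overlap. The background shares are the same 12.2% and 10.9% of rows in the starved comparison and 8.89% and 7.13% in the siFoxk1 comparison. The lists were written with earlier results of these libraries known, and none was tested as a set.

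The list of genes for latency, storage and activation of TGF-beta had 20 expressed genes in the siFoxk1 comparison. Of these, 10 were higher without overlap, 10 overlapped the control and none was lower without overlap. These are 50% higher and 0% lower, beside 8.89% and 7.13% of all expressed rows. The median log2 fold change was 0.48. Fmod and Dcn encode fibromodulin and decorin, small proteoglycans that can bind TGF-beta. Fmod was at 8.69 FPKM (7.11 to 10.3) in the siFoxk1 library, against 1.21 FPKM (0.915 to 1.52) in the control library, and Dcn was at 30.0 FPKM (25.1 to 34.9), against 9.64 FPKM (7.95 to 11.3). The integrin subunit gene Itgb5, whose protein pairs with the alpha V subunit that recognises latent TGF-beta, was at 84.4 FPKM (67.7 to 101) in the siFoxk1 and 35.6 FPKM (28.7 to 42.5) in the control library. Mmp2, a gelatinase, had log2 fold changes of 0.87 in the starved and 1.39 in the siFoxk1 library, both with intervals apart.

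In the starved library 3 genes of the same list (15%) were higher and 4 (20%) lower without overlap, with a median of -0.05. The shares of all expressed rows were 12.2% and 10.9%. Plau, which encodes urokinase, was at 46.8 FPKM (36.8 to 54.9) in the starved library, against 123 FPKM (98.2 to 140.5) in the control library. Itgb1, the common beta 1 integrin subunit, was at 156 FPKM (120.0 to 179.8) in the starved, against 238 FPKM (189.8 to 273) in the control library. Itgb6 (log2 fold change -0.65) was lower without overlap as well, but was under 1 FPKM in the starved library and entered through the control. So did Fmod, the remaining lower gene (-0.43).

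Of thrombospondin relatives and receptors, 9 of 14 were expressed. In the starved library 1 (11.1%) was higher and 3 (33.3%) lower without overlap (median -0.26), beside 12.2% and 10.9% of all expressed rows. In the siFoxk1 library 2 (22.2%) were higher and 1 (11.1%) lower without overlap (median 0.19), beside 8.89% and 7.13%. Sdc4, a heparan sulfate proteoglycan of the syndecan family, was at 55.9 FPKM (41.5 to 61.8) in the starved library, 213 FPKM (160.4 to 239.9) in the siFoxk1 library and 132 FPKM (102 to 146) in the control library, all apart. Sdc1 was lower without overlap in the starved library (-0.66), and Itga6, an integrin alpha subunit, was lower without overlap in both the starved (-0.62) and the siFoxk1 library (-0.73). Spon2, which encodes a secreted protein with a thrombospondin repeat, was higher without overlap in both (0.54 and 0.81). Lrp1, an endocytic receptor that takes up thrombospondins, had a log2 fold change of 0.50 in the siFoxk1 library with overlapping intervals.

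Receptors other than Tgfbr2 were called at shares close to those of all expressed rows, 10.0% higher in the starved library, beside 12.2%, and 12.5% higher in the siFoxk1 library, beside 8.89%. In the starved library 1 of 10 expressed receptors was higher without overlap, the co-receptor gene Tgfbr3, at 1.74 FPKM (1.36 to 2.11) in the starved library and 0.455 FPKM (0.333 to 0.573) in the control library, so that it entered through the starved library. In the siFoxk1 library 1 of 8 was higher without overlap, the type II receptor gene of bone morphogenetic proteins Bmpr2, at 33.5 FPKM (26.9 to 40.0) in the siFoxk1 library and 15.3 FPKM (12.1 to 18.5) in the control library. Neither comparison had a receptor lower without overlap, beside 10.9% of all expressed rows in the starved and 7.13% in the siFoxk1 comparison. The medians were 0.31 in the starved and 0.21 in the siFoxk1 library. The log2 fold changes of Acvr2a (0.59), Bmpr1b (0.34) and Bmpr1a (0.34) in the starved library came with overlapping intervals, as did those of Acvr1 (0.36) and Eng (0.31) in the siFoxk1 library.

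All 22 Smads and regulators were expressed. In the starved library 4 (18.2%) were higher and 3 (13.6%) lower without overlap (median 0.01), beside 12.2% and 10.9% of all expressed rows. In the siFoxk1 library 7 (31.8%) were higher and none lower without overlap (median 0.25), beside 8.89% and 7.13%. Smad7, which encodes an inhibitory Smad, was at 4.78 FPKM (3.89 to 5.67) in the starved library, 17.4 FPKM (14.3 to 20.5) in the siFoxk1 library and 10.8 FPKM (9.17 to 12.4) in the control library. Its intervals were all apart, in the order of libraries seen for Thbs1 and Tgfb1. Pmepa1, which encodes a membrane protein that restrains Smad activation, followed that order at 35.8 FPKM in the starved, 100.4 FPKM in the siFoxk1 and 56.7 FPKM in the control library, again all apart. So did Tgfb1i1, the gene of the focal adhesion protein Hic-5, at 20.1, 60.2 and 36.6 FPKM in the starved, siFoxk1 and control libraries. The share of all expressed rows with this order is not given here, so nothing is read from the likeness. Smad3, a signalling Smad, was higher without overlap in both the starved (0.87) and the siFoxk1 library (0.53). The inhibitory Smad6 (1.07) and the Smad corepressor gene Skil (0.87) were higher without overlap in the siFoxk1 library.

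Genes known to be induced by TGF-beta in many mesenchymal cells had 2 of 30 expressed members higher without overlap and 19 lower without overlap in the starved library, with a median log2 fold change of -0.64. In the siFoxk1 library 19 of 31 were higher without overlap and 2 lower without overlap, with a median of 0.71. The shares were 63.3% lower in the starved and 61.3% higher in the siFoxk1 library, beside 10.9% and 8.89% of all expressed rows. Many of the listed genes also respond to serum, so the list is not specific to TGF-beta. Timp3, a metalloproteinase inhibitor gene, was at 49.8 FPKM (39.6 to 60.5) in the starved, 178 FPKM (149 to 207) in the siFoxk1 and 73.9 FPKM (63.0 to 84.7) in the control library. The matrix gene Tnc was lower without overlap in the starved library (-1.24), while its knockdown and control values of 129 FPKM each overlapped. Ctgf (-3.89) and Acta2 (-1.59) were among the other large starved changes, and Tagln (2.01), Acta2 (1.98) and Itga11 (1.38) among the other large knockdown changes, all with intervals apart. Itga11 was under 1 FPKM in the control and entered through the siFoxk1 library.

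The counts in the other direction were 2 in each comparison, which is 6.67% of the expressed list in the starved library, beside 12.2% of all expressed rows, and 6.45% in the siFoxk1 library, beside 7.13%. Under both scalings the starved count was 4. Snai2, a transcriptional repressor gene, and the cell cycle inhibitor gene Cdkn1a were the 2 genes of this list higher without overlap in the starved library, with Snai2 at 69.4 FPKM (56.9 to 81.8) there, 44.1 FPKM (37.3 to 51.0) in the siFoxk1 library and 31.8 FPKM (27.0 to 36.5) in the control library. The basement membrane collagen gene Col4a1 (-0.63) and the lysyl oxidase family gene Loxl2 (-0.96) were the 2 genes lower without overlap in the siFoxk1 library. These 4 were named after their values were seen.

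Of 29 other ligands and antagonists of the superfamily, 13 were expressed. In the starved library none was higher and 5 (38.5%) were lower without overlap (median -0.54), beside 12.2% and 10.9% of all expressed rows. In the siFoxk1 library 6 (46.2%) were higher and 2 (15.4%) lower without overlap (median 0.25), beside 8.89% and 7.13%. Nog, one of the lower genes in the starved library, was under 1 FPKM there and entered through the control. Among rows with a mean of 5 FPKM or more over the libraries, 3 were lower in the starved library. Inhba, which encodes the subunit of activin A, was at 7.89 FPKM (6.19 to 9.59) in the starved library, 46.9 FPKM (35.1 to 58.7) in the siFoxk1 library and 20.1 FPKM (15.7 to 24.5) in the control library. Its antagonist gene Fst, for follistatin, was at 1.05 FPKM (0.690 to 1.40) in the starved, 8.61 FPKM (6.48 to 10.4) in the siFoxk1 and 3.66 FPKM (2.74 to 4.54) in the control library. Both had all intervals apart in the order of Thbs1 and Tgfb1, as did Inhbb, at 2.80, 12.5 and 6.76 FPKM in the starved, siFoxk1 and control libraries. Without the share of all rows with this order, nothing is read from it. Grem1, a secreted antagonist of bone morphogenetic proteins, was lower without overlap in the starved library (-1.84) and overlapped the control in the siFoxk1 library. Bmp4 (1.72) and the follistatin-like gene Fstl1 (1.45) were higher without overlap and Gdf15 (-1.31) was lower without overlap in the siFoxk1 library.

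**Figure D4:**
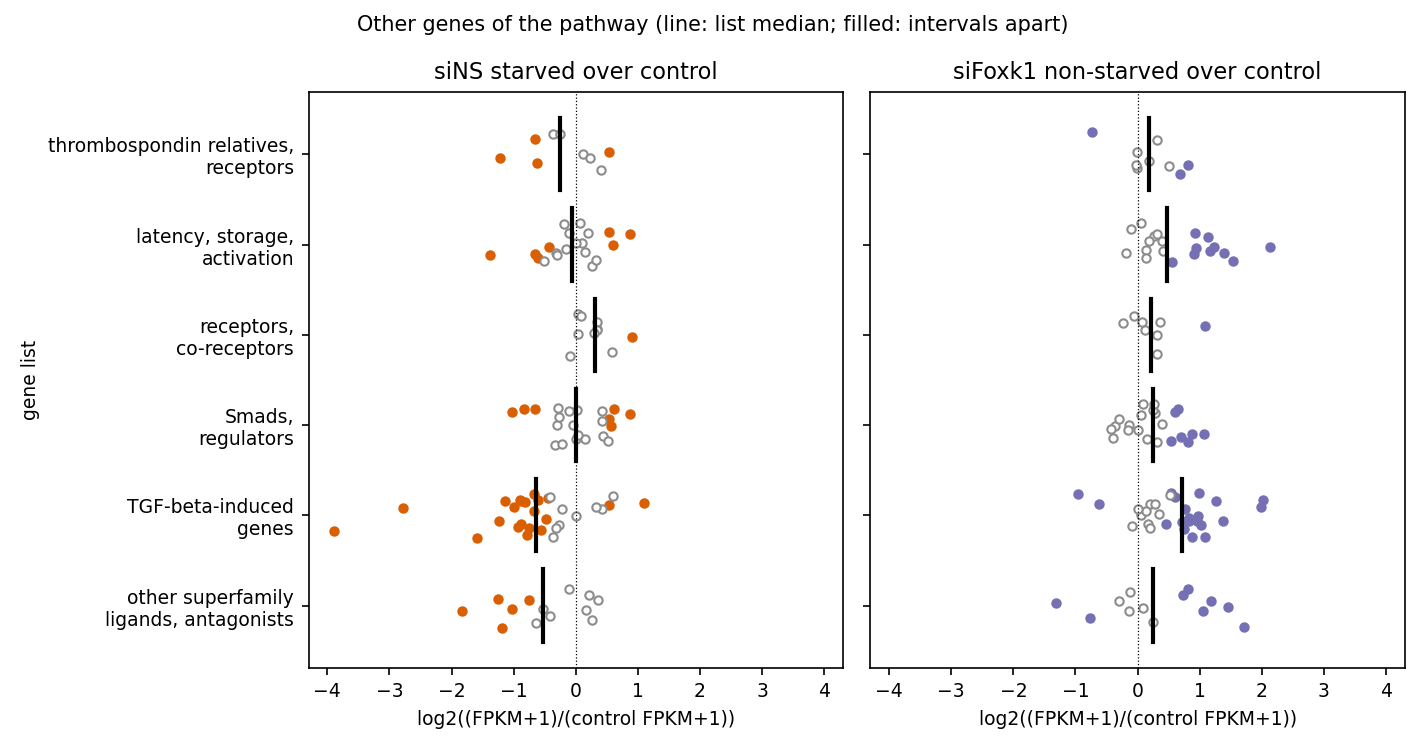
Log2 fold change of each expressed gene of the 6 pathway lists for siNS starved over control and siFoxk1 over control (filled points for intervals apart, open points for overlap, black line for the list median, vertical jitter arbitrary). The list of TGF-beta-induced genes has medians of -0.64 and 0.71, while the Smads lie at 0.01 and 0.25.

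Promoter sequences are shown for members with intervals apart in the siFoxk1 library, to set the higher Tgfb1, Tgfb2 and Ltbp3 beside the lower Ltbp1. They are from RefSeq, build GRCm38.p6, while the expression tables use mm9. Of the 10 genes, 8 had at least 1 window from 250 bases before to 50 bases after a start site, 9 windows in all, and Thbs1 and Tgfb3 had none. Capitals mark CAGAC, the core of the SMAD binding element, or its reverse complement, and TGANTCA, the AP-1 motif. In Ltbp3 a match to each overlaps in 1 capital run. Of the 2 windows of Ltbp1 the upstream one is shown.
Tgfb1 (chr7:25686752-25687051, plus strand): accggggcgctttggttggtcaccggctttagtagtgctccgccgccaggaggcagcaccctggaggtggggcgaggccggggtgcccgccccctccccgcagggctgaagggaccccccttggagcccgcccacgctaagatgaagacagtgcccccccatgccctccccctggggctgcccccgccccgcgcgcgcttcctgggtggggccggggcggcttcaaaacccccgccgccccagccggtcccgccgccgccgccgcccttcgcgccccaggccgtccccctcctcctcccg
Tgfb2 (chr1:186705940-186706239, minus strand): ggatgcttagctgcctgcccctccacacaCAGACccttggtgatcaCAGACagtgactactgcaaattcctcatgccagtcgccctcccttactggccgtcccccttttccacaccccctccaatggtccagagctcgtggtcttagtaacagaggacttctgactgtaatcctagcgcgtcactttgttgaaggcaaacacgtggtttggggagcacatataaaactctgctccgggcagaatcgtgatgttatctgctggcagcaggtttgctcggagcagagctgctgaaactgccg
Ltbp3 (chr19:5740650-5740949, plus strand): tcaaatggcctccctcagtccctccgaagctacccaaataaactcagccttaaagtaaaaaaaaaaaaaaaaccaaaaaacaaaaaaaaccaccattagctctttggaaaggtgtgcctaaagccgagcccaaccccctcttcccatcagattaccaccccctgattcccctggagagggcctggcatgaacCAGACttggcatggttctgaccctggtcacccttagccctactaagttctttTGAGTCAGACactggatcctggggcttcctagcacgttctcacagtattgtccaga
Ltbp1 (chr17:75005279-75005578, plus strand): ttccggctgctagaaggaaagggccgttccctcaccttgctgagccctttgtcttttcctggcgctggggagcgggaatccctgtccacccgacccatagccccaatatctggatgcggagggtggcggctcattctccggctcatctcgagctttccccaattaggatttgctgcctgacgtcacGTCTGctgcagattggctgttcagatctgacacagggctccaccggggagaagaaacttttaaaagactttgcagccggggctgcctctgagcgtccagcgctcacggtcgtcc

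CAGAC, on either strand, was in 7 of the 9 windows and in 49.6% of all 32851 windows. The 7 windows belonged to 6 of the 8 genes, namely Thbs2, Tgfb2, Ltbp1, Ltbp2, Ltbp3 and Tgfbr2. Tgfb2 and Ltbp3 held 2 matches each and the Ltbp1 window shown held 1, while Tgfb1 held none. TGANTCA was in the window of Ltbp3 and in 7.81% of all windows. The forkhead core TAAACA and the TEAD motif GGAATG, each on both strands, were in none of the 9 windows, and in 13.4% and 14.7% of all windows. The Tgfb1 window was 77.0% G and C and that of Ltbp3 48.0%, beside a median of 52.7% over all windows. A match describes letters and no site, and the absence of a match says nothing about the factor outside these windows.

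In the RefSeq annotation Ltbp2 overlaps the long noncoding RNA gene D030025P21Rik. That gene was at 2.46 FPKM in the starved, 6.45 FPKM in the siFoxk1 and 4.68 FPKM in the control library. These means fall in the order of the Ltbp2 means, but the knockdown and control intervals of Ltbp2 overlapped. Without the share of all rows with this order, nothing is read from the likeness. Whether reads were counted by strand is not given in the sources used here, so reads from overlapping stretches cannot be told apart.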

How the data were processed

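RNA values were deposited by the authors as mean FPKM with lower and upper limits of a 95% interval, per the file headers. Per the submitters' processing notes, the tools were Cuffdiff, Cufflinks 2.1.1, Bowtie2 2.1.0 and TopHat2 2.0.9, with no roles stated, and the build was mm9. Not given in the sources used here are the annotation, the method behind the intervals and whether the mean pools cultures. FPKM holds no counts, so a count model was not run and the depth is unknown. Groups came from sample titles, with 1 library each.

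The deposited FPKM were used unscaled. 1 row (Zzz3) with limits in the wrong order was left out. A pseudocount of 1 FPKM, a minimum of 1 FPKM and non-overlap of the deposited intervals were used. Named genes were the 10 members, up to 4 genes of each of 6 pathway lists with the largest change in each comparison, and the 5 rows nearest to Thbs1. By that rule a second set of 5 nearest rows, for the member with the largest starved change, was again that of Thbs1. Members and lists were chosen with earlier results of these data known. Alternatives covered the pseudocount, filter, scaling, fold threshold and interval width. The calling code was checked on simulated data. Blood and macrophage markers summed to between 1.37 and 4.20 FPKM, mostly Cd68, and platelet markers to between 1.02 and 2.82 FPKM, with Gp9 listed at 0 in all libraries and Itga2b higher without overlap in the starved library, at 2.31 FPKM against 0.647 FPKM in the control library. Their part in the results was not tested. The region lists of the ChIP samples were not used here, and a gene that the rule names is not reported here. Computation used pandas 2.3.3, numpy 2.4.6 and matplotlib 3.10.9 under Python 3.11.15.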

Additional observations from a re-analysis of the deposited data

How the results depend on the processing

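Each group holds 1 library, so none was left out. No paired analysis was possible because each group holds 1 library. Under pseudocounts of 0.1 and 5, no pseudocount and 2 scalings, all 100 alternative fold changes of the 10 genes stayed within the range the authors' limits allow, and none of those apart changed sign. That range sets opposite limits against each other and is wide beside changes of this size, so staying within it says little. Under both scalings (factors 0.995 to 1.03), the same members were apart from the control as without scaling. In the starved against knockdown comparison scaling made 2 members higher apart, Tgfbr2 being the one added.

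Asking for 2-fold as well left 2 members lower in the starved library, 2 higher and 0 lower in the knockdown library, and 4 lower and 0 higher in the starved against the knockdown library. By plain FPKM ratio, chosen after seeing the data, the members left were the same apart from 6 lower in the starved against the knockdown library. The 2-fold rule on the log2(FPKM + 1) scale left 320 higher and 267 lower of all rows in the starved comparison, and 235 and 122 in the knockdown comparison. Of the 6 pathway lists together it left 1 higher and 12 lower in the starved, and 18 higher and 1 lower in the knockdown comparison. By plain ratio these were 517 and 396 rows in the starved and 366 and 234 in the knockdown comparison, and 2 and 15 pathway genes in the starved and 22 and 1 in the knockdown comparison.

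Interval widths doubled, an alternative chosen after seeing the data, left Thbs1 and Thbs2 lower in the starved library (2 members) and Thbs1, Tgfb1 and Tgfb3 higher in the knockdown library (3 members), with 0 members lower there. In the starved against the knockdown library it left 5 members lower (Thbs1, Thbs2, Tgfb1, Tgfb3 and Ltbp2) and 0 higher. Of all rows it left 271 higher and 234 lower in the starved and 202 and 105 in the knockdown comparison. Of the pathway genes it left 3 higher and 12 lower in the starved and 14 and 1 in the knockdown comparison. These rules count fewer rows by construction. Of 168 alternative counts of single lists, 54 moved by over 1.5 times, of which 16 under the 2-fold rule, 14 under it by plain ratio and 17 under doubled widths. A mean of 5 FPKM or more moved 4, all in the starved comparison. Storage and activation genes had 1 higher and 2 lower in place of 3 and 4, receptors 0 higher in place of 1, and other ligands 3 lower in place of 5. With no filter 4 thrombospondin relatives in place of 2 were higher in the knockdown comparison, and under each scaling 4 TGF-beta-induced genes in place of 2 were higher in the starved comparison.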
